A study of Mus musculus with 5 samples.

Results

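The tumour necrosis factor (TNF) family genes described here are 7 genes chosen by name: the ligands Tnf, Lta and Ltb and the receptors Tnfrsf4, Tnfrsf9, Tnfrsf18 and Tnfrsf1b. All 7 were found among the 13911 genes of the table, and each was read in 5 single-cell RNA libraries and across the cells of each library. The cells were OT-I CD8+ T cells from spleen and lymph nodes of C57BL/6-Tg(TcraTcrb)1100Mjb/J mice, whose transgenic T cell receptor recognises the ovalbumin peptide SIINFEKL. One library was made from cells taken at 0 h, without culture (2952 cells). The others were cells enriched by flow cytometric sorting after co-culture in RPMI-1640 medium with dendritic cells (DCs) loaded with that peptide, or with such DCs and myeloid-derived suppressor cells (MDSCs), and then run on the 10x Genomics droplet platform. They held 1562 cells at 24 h with DCs, 2247 at 24 h with DCs and MDSCs, 1926 at 72 h with DCs and 4942 at 72 h with DCs and MDSCs. The age, sex and number of the mice and the source of the MDSCs are not given in the labels. Every cultured library had peptide-loaded DCs, so time in culture and stimulation cannot be told apart, and each group was 1 library, so no difference has a replicate check and no test was run.

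TNF family ligands are mostly trimers on the surface of a cell that bind trimeric receptors on a neighbour, and the receptors recruit TRAF adaptor proteins that switch on NF-kB. Activated T cells make TNF and lymphotoxin alpha, the products of Tnf and Lta, which as soluble trimers bind the TNF receptors, and lymphotoxin beta, the product of Ltb, holds lymphotoxin alpha at the membrane and signals through a separate receptor on stromal and myeloid cells. The receptors OX40 (Tnfrsf4), 4-1BB (Tnfrsf9) and GITR (Tnfrsf18) give costimulatory signals that support survival and expansion of activated T cells, and TNFR2 (Tnfrsf1b) is the TNF receptor found mainly on lymphocytes.

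The ligand genes are neighbours on chromosome 17, and their levels in these libraries went in different directions, so the sequence before each start is shown. In the GENCODE M21 annotation of GRCm38, Ltb lies at chr17:35194439-35196320 on the plus strand, Tnf at chr17:35199381-35202007 on the minus strand and Lta at chr17:35203165-35205351 on the minus strand. Gaps of 3060 bp between Ltb and Tnf and 1157 bp between Tnf and Lta hold no annotated gene. The 250 bases before each start in RefSeq (GRCm38.p6) are given 5' to 3' on the gene's own strand, at chr17:35202008-35202257 for Tnf, chr17:35205352-35205601 for Lta and chr17:35194257-35194506 for Ltb. The RefSeq start of Ltb lies downstream of its GENCODE start at 35194439, so the last bases of its window fall within the gene as placed above. Capitals mark matches to the NFAT core GGAAA on either strand (TTTCC on the other strand), to the NF-kB consensus on either strand, or to TATAAA on the strand shown.
Tnf: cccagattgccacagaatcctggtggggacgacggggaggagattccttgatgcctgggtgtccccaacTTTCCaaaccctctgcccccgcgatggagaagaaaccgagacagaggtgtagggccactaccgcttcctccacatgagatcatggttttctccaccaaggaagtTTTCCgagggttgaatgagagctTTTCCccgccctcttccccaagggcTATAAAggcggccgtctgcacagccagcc
Lta: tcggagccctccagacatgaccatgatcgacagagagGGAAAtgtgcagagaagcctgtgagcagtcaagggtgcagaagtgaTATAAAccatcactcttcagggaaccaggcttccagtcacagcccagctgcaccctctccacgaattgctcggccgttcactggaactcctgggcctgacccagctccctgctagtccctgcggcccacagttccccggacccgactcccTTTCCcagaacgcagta
Ltb: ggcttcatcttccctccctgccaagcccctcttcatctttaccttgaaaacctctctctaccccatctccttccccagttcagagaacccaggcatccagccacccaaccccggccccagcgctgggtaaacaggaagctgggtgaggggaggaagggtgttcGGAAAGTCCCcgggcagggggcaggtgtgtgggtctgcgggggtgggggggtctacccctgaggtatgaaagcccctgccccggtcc
The Tnf window held 3 GGAAA matches, whose first bases lay 181, 77 and 54 bases before the start, and a TATAAA at 29 bases. The Lta window held GGAAA at 213 and 17 bases and TATAAA at 167 bases. The Ltb window held no TATAAA and a single NF-kB match at 87 bases before the RefSeq start, which begins with the only GGAAA match of that window. None of the ligand windows held the AP-1 motif TGANTCA, which was also searched on both strands. Among 32851 RefSeq promoter windows of the same length, 55.6% held GGAAA, 7.25% the NF-kB consensus, 7.59% TATAAA and 6.75% TGANTCA, so GGAAA is a common match. These matches are descriptions of letters, and binding was not measured.

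Levels are adjusted CPM: the adjusted counts of a gene in a library, scaled to a library sum of 1000000. The scale is called adjusted since the deposited whole numbers had been adjusted to a nearly equal total per cell (13061 to 15988) and the sequencing depth is unknown. Cells at 0 h had a median of 2210 genes above 0, those of the cultured libraries medians of 3111 to 3621, and any pair of libraries shared 7 to 18 cell barcodes. The 0 h values stood apart: 60 of 3337 genes that reached 20 CPM varied across cells with a variance over mean under 0.5, and no gene of the other libraries did. For genes in under 2% of all cells, 26.3% of the 0 h values above 0 equalled 1, against 95.2 to 96.8% elsewhere. Lta (variance over mean 0.294) and Tnfrsf9 (0.127) were among the 60, with nearly every 0 h cell at 0 or 1, so no fold or share against 0 h is read for them singly, and counts against 0 h are given with and without them. Of the Tnf, Tnfrsf1b and Tnfrsf4 values above 0 at 0 h, 4.44%, 7.20% and 74.2% equalled 1, and their folds against 0 h carry an unknown bias. Summed T cell markers were at 2258 CPM or more in every library, and 7 of the 8 listed markers were in the table. The share of cells above 0 that free RNA can give was not tested, and exact (Clopper-Pearson) 95% intervals of shares cover counting error only.

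Tnf had its highest levels at 24 h. The level was 2.23 CPM at 0 h, 59.1 at 24 h with DCs, 69.0 at 24 h with DCs and MDSCs, 7.27 at 72 h with DCs and 8.82 at 72 h with both. Both 24 h libraries were above the other 3, and the share of cells above 0 followed the same order: 1.52% (45 cells), 43.1% (95% interval 40.6 to 45.6), 46.5% (44.4 to 48.6), 9.50% (8.23 to 10.9) and 11.5% (10.6 to 12.4). The 24 h level with DCs was 26.6-fold that at 0 h, and the 72 h level with DCs was 8.13-fold lower than the 24 h level. The mean in cells above 0 was 2.14 adjusted counts at 24 h and 1.16 at 72 h with DCs, so the later level was lower in cells with the transcript as well as in their number. Transcript was concentrated: at 24 h with DCs, the 10% of cells with most Tnf held 53.9% of its sum.

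Lta, which encodes lymphotoxin alpha, was also highest at 24 h. It stood at 57.6 CPM at 0 h, 223 at 24 h with DCs, 365 at 24 h with DCs and MDSCs, 33.8 at 72 h with DCs and 94.7 at 72 h with both. At each time the library with MDSCs was the higher. Without MDSCs, cells above 0 were 70.7% at 24 h and 27.6% at 72 h, and with MDSCs 85.0% and 52.5%. The 72 h level with DCs was 6.60-fold lower than at 24 h, and with MDSCs it was 3.85-fold lower. The mean in cells above 0 was 4.90 and 6.58 adjusted counts at 24 h and 1.85 and 2.74 at 72 h, and single cells reached 58 at 24 h with MDSCs.

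Ltb, which encodes lymphotoxin beta, showed the reverse order. Its level was 773 CPM at 0 h, 121 at 24 h with DCs, 109 at 24 h with DCs and MDSCs, 566 at 72 h with DCs and 269 at 72 h with both. Both 24 h libraries lay below all the others. Ltb was above 0 in every 0 h cell, in 46.5% (44.0 to 49.1) and 53.6% (51.5 to 55.7) of the 24 h cells with DCs and with both, and in 97.3% and 90.0% of the 72 h cells. The level at 24 h with DCs was 6.37-fold lower than at 0 h, and at 72 h with DCs it was 4.67-fold higher than at 24 h. These are log2 ratios of -2.67 and 2.22, and when each level was taken as the mean of the log values, which counts high cells less, they were -3.42 and 2.98. In the authors' separate 24 h table the shares of cells were 64.1% and 62.9%, so their order was not kept. The genes on either side of the ligand cluster had other profiles: Lst1, a leukocyte membrane protein gene, was at 5.15, 1.98, 1.94, 23.0 and 19.7 CPM in the same library order, and Nfkbil1 at 14.6, 21.2, 24.7, 43.2 and 38.1.

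**Figure D1:**
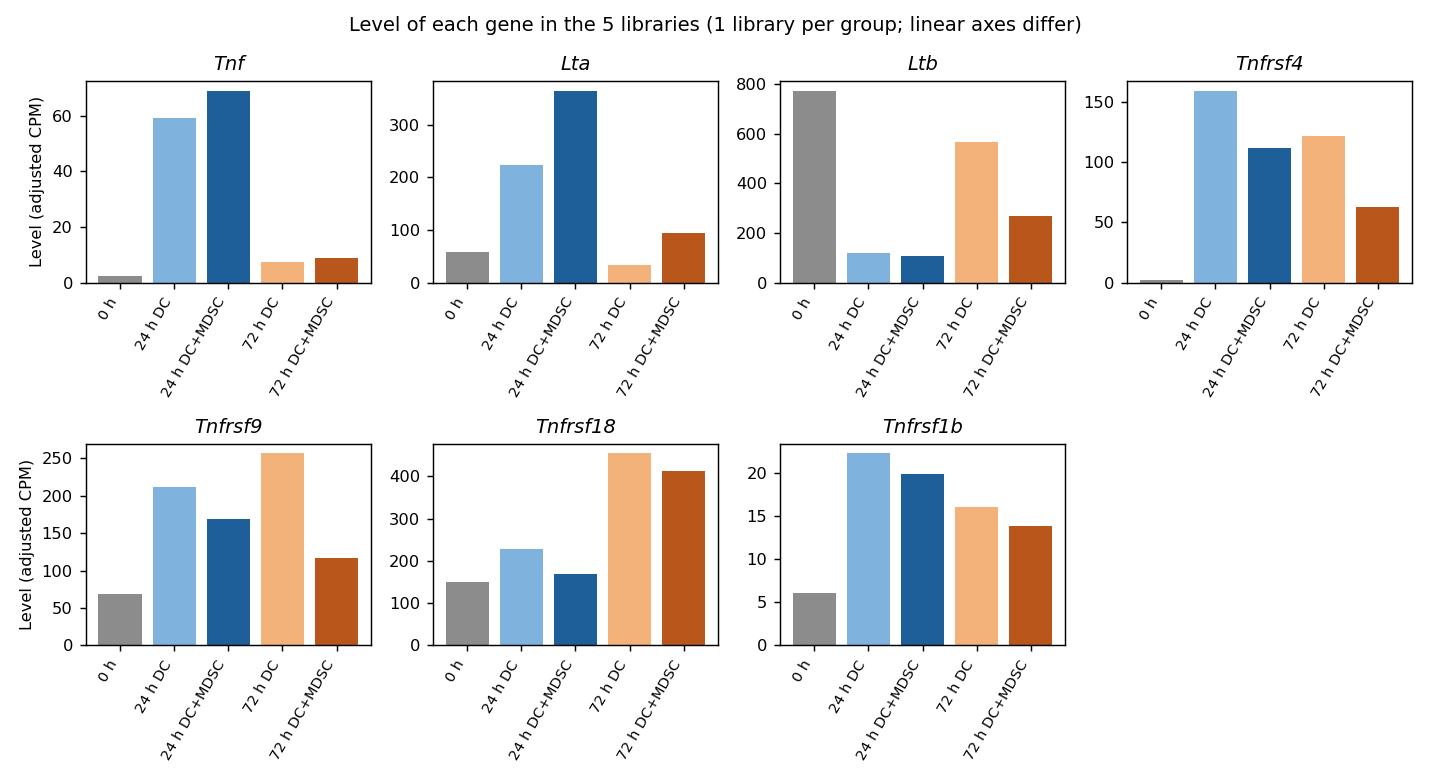
Level of each of the 7 genes (y axis, adjusted CPM, linear, a separate scale per gene) in the 5 libraries (x axis), 1 bar per library with no error bar because each group is 1 library. Tnf and Lta have their tallest bars at 24 h, Ltb its shortest there, and Tnfrsf4 is near 0 only at 0 h.

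Among the receptors, Tnfrsf4, which encodes OX40, differed most from 0 h. It was at 2.01 CPM at 0 h, 159 at 24 h with DCs, 112 at 24 h with DCs and MDSCs, 122 at 72 h with DCs and 62.5 at 72 h with both. It was near 0 in the uncultured cells alone. The level at 24 h with DCs was 79.4-fold the 0 h level, and the share above 0 was 2.10% at 0 h (62 cells) and 46.2%, 45.3%, 45.8% and 39.0% in the cultured libraries. The cultured shares differed little while the mean in cells above 0 was 5.37, 3.78, 4.04 and 2.44 adjusted counts. Lower levels of Tnfrsf4 with MDSCs thus came mostly with lower values per positive cell. Tnfrsf4 (chr4:156013843-156016612, plus strand) starts 232 bp after the end of Sdf4, and reads running past Sdf4 could be counted to it. At 0 h, Sdf4 was at 206 CPM with Tnfrsf4 at 2.01. Across cells of the cultured libraries, in the order above, the correlation of the 2 genes was 0.25, 0.16, 0.37 and 0.13, and whether reads were so counted was not tested.

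The 62 cells with Tnfrsf4 at 0 h were mostly cells with the cycling gene Mki67: 46 of them (74.2%) had it above 0, against 62 of the other 2890 cells (2.15%). Of the 108 cells with Mki67 at 0 h, 42.6% had Tnfrsf4 above 0. The survival genes Bcl2l1 and Bcl2a1b were above 0 in 72.6% and 75.8% of the 62 cells, against 3.56% and 8.37% of the others, and the adaptor gene Traf4 in 75.8% against 11.9%. Batf, an AP-1 factor of activated T cells, was above 0 in 80.6% against 25.2%. Some other listed genes went the other way: Rel at 3.23% against 6.71%, Nfkb2 at 3.23% against 6.44% and Birc3 at 1.61% against 6.89%. Irf4 and Tnf were at 0 in all 62 cells, but both were rare, above 0 in only 3 and 45 of the other 2890. The natural killer cell marker Klrb1c was above 0 in 13 of the 62 cells and 14 of the other 2890. Ly6c2, 1 of the genes listed as monocyte markers, was above 0 in 45.2% against 18.5%. From the same list, Ccr2 was above 0 in 8.06% against 0.554%, Ms4a6c in 8.06% against 2.70% and Cd68 in 1.61% against 0.450%. Lyz2 and Fcgr3 were at 0 in all 62 cells and above 0 in 2 and 9 of the others. Cd4 was at 0 in every 0 h cell. Tnfrsf4 was above 0 in 7.58% of the 132 cells with a myeloid marker at 0 h and in 1.84% of the others, and the part of this in the result was not tested. The 62 cells had a median of 2486 genes above 0, against 2207 in the rest, and what their wider detection gives to these shares was not tested. Of their Tnfrsf4 values 74.2% equalled 1, against 26.3% of 0 h values above 0 for genes in under 2% of all cells. The part of the unusual 0 h values in this co-detection was not tested, so the 62 cells are not read as a cell population. Genes other than Mki67 were picked after their values were seen.

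Tnfrsf9, which encodes 4-1BB (chr4:150914562-150946102, plus strand, overlapping Camta1), was at 68.7 CPM at 0 h, 211 at 24 h with DCs, 169 at 24 h with DCs and MDSCs, 257 at 72 h with DCs and 117 at 72 h with both. It was lower in the MDSC library at both times, and the 2 DC libraries were close, 1.21-fold apart. Tnfrsf18, which encodes GITR (chr4:156026164-156028895, plus strand), was at 149, 229, 169, 455 and 413 CPM in the same order. It was highest at 72 h, 1.99-fold above 24 h with DCs, just under the 2-fold rule. Tnfrsf1b, which encodes TNFR2 (chr4:145213463-145246870, minus strand), was low throughout at 6.07, 22.3, 19.9, 16.1 and 13.9 CPM and was found in 28.7% of cells or fewer. Its level at 24 h with DCs was 3.67-fold that at 0 h.

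**Figure D2:**
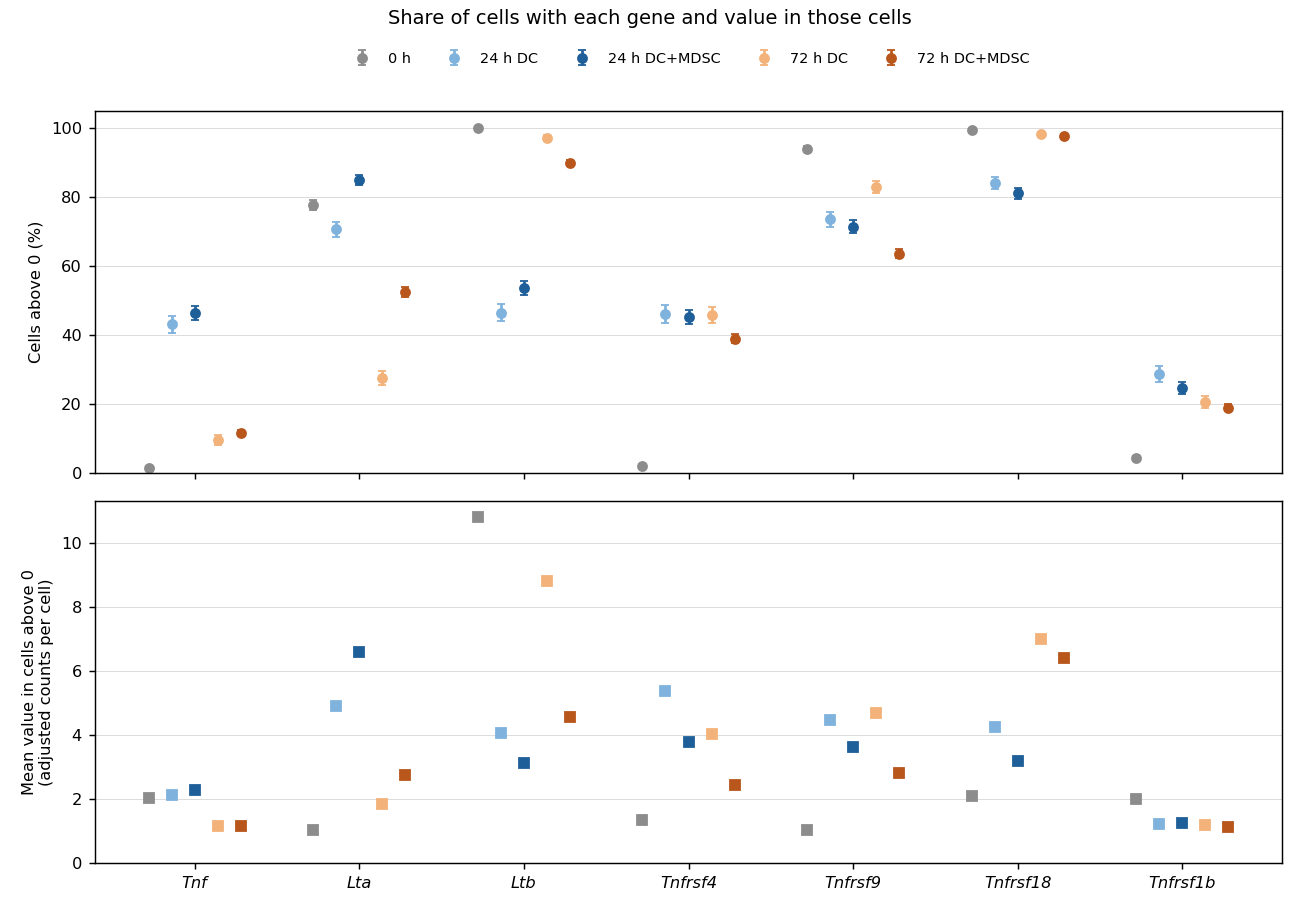
Upper panel: percent of cells above 0 (y axis, with exact 95% intervals that cover counting error only) for the 7 genes in the 5 libraries. Lower panel: mean adjusted counts in those cells, where Tnfrsf4 shows nearly level shares in the cultured libraries (39.0 to 46.2%) but means from 2.44 to 5.37.

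Counted over the group, all 7 genes reached 20 CPM in either library at 24 h with DCs or at 0 h. Past 2-fold were 6 of 7, where 50.7% of 5132 genes tested were. Higher at 24 h were 5 of 7, where 39.6% of genes were, and lower was 1 of 7 (Ltb), where 11.1% were. Lta and Tnfrsf9, with their unusual 0 h values, are among the 5, and without them 3 of the genes were higher and 1 lower. From 24 h to 72 h with DCs 3 of 7 were past 2-fold, where 37.0% of 5442 genes were. Of these, 1 (Ltb) was higher, against 15.5% of genes, and 2 (Tnf and Lta) were lower, against 21.6%. From 24 h to 72 h with MDSCs, 6 of 7 reached the minimum level. Past 2-fold were 4, where 36.0% of 5273 genes were: 2 (Ltb and Tnfrsf18) were higher, against 9.75%, and 2 (Tnf and Lta) were lower, against 26.3%. Shares of so few genes are coarse, and nothing particular to the group is read from them.

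MDSCs in the 24 h culture went with small differences in these genes. Of the 7, none was past 2-fold, where 0.709% of 4939 genes were (0.547% higher and 0.162% lower). The largest was Lta at 365 against 223 CPM, a log2 ratio of 0.71 that was above that of 98.5% of the genes tested. The costimulatory receptors lay at the other end: Tnfrsf4 at -0.52, Tnfrsf18 at -0.44 and Tnfrsf9 at -0.33 stood above only 0.992%, 1.36% and 2.65% of the genes tested. For scale, the 5th to 95th percentile of all genes was -0.24 to 0.44 around a median of 0.13. Tnf at 0.22, Ltb at -0.15 and Tnfrsf1b at -0.16 lay inside that range. All comparisons with DCs alone at 24 h use the same library.

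At 72 h the differences with MDSCs were wider, for these genes and for all genes. Of 5 genes at the minimum level 3 were past 2-fold, where 7.36% of 4715 genes were. Lta was 2.81-fold higher, where 1.85% of genes were higher, and Ltb and Tnfrsf9 were lower by 2.10-fold and 2.19-fold, where 5.51% were lower. The log2 ratio of Lta, 1.49, was above that of 99.3% of genes tested. Tnfrsf4 was 1.95-fold lower (log2 ratio -0.97) and Tnfrsf18 close to level (-0.14). Tnf (0.28) and Tnfrsf1b (-0.22) were under the minimum level in both libraries. The 5th to 95th percentile of all genes was -1.05 to 0.72.

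**Figure D3:**
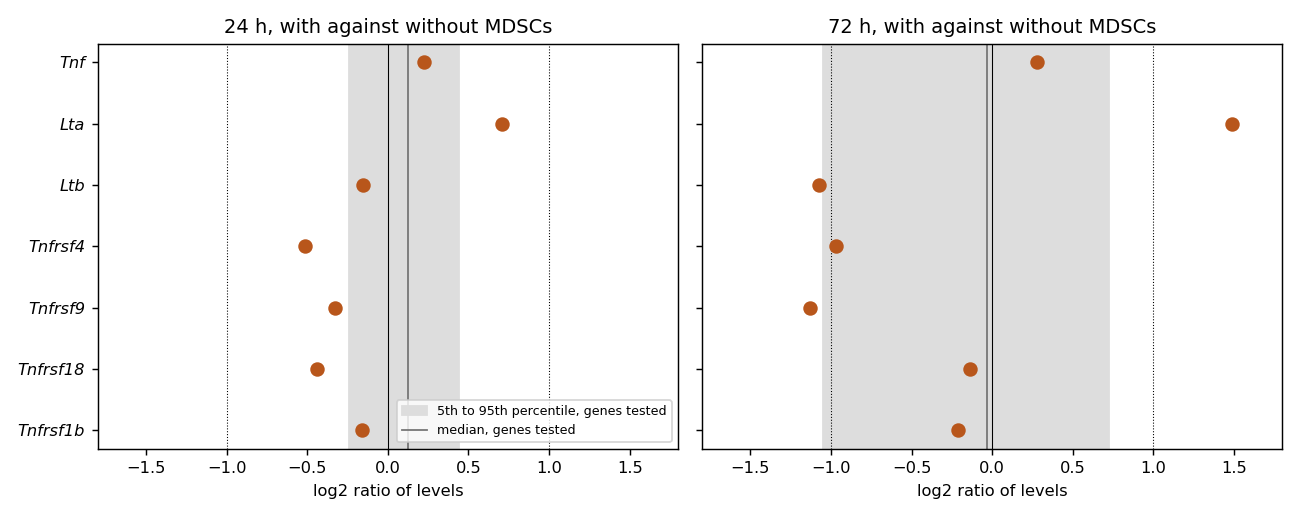
Log2 ratio of levels with against without MDSCs (x axis) for the 7 genes (y axis) at 24 h (left) and 72 h (right), each point being a ratio of 2 libraries. The grey band is the 5th to 95th percentile of all genes tested, and Lta lies above it at both times, at 0.71 and 1.49.

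The cells of the 72 h libraries differed in their spread over values. With DCs alone 72.4% of cells had Lta at 0, and with MDSCs 47.5%, while the share at 3 to 5 adjusted counts was 3.17% and 11.8%. For Ltb nearly all cells kept the transcript, and the share above 10 adjusted counts was 31.2% with DCs and 4.69% with MDSCs. Tnfrsf9 differed at both ends, with 17.0% and 36.3% of cells at 0 and 5.56% and 0.809% above 10. Tnfrsf4 differed mainly in its upper classes: 7.84% and 2.71% of cells at 6 to 10, and 2.96% and 0.425% above 10. The median number of genes above 0 was 3217 and 3111 in these libraries, and its part in the shares was not tested.

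**Figure D4:**
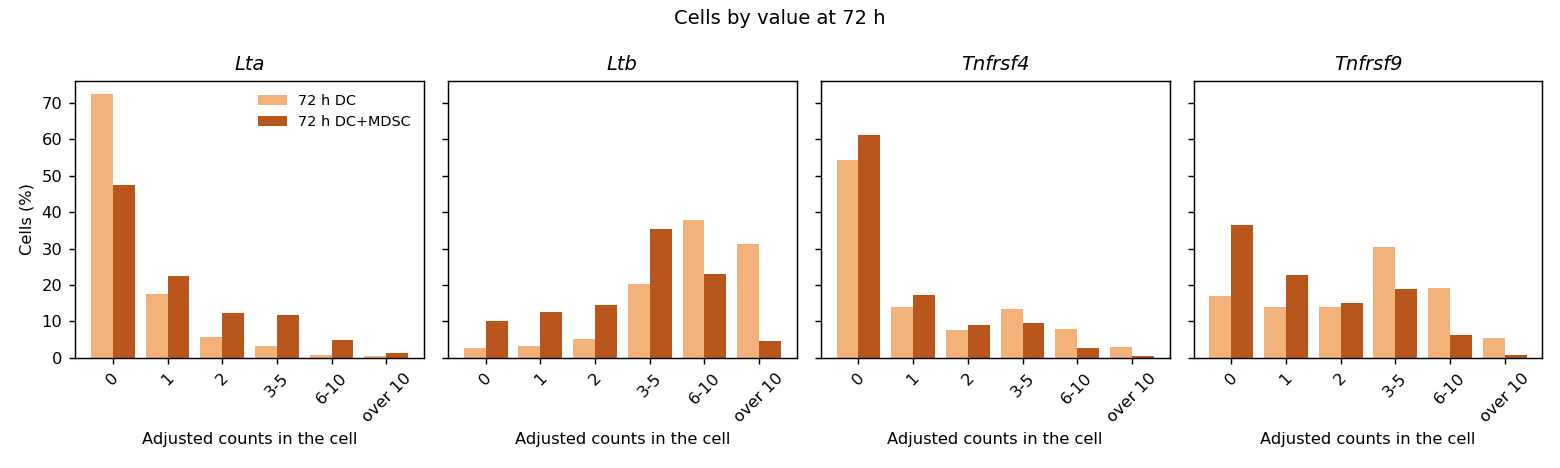
Percent of cells (y axis, linear) in each class of adjusted counts (x axis) at 72 h with DCs (light) and with DCs and MDSCs (dark) for 4 genes. With MDSCs the Lta cells shift out of the 0 class (72.4% to 47.5%), and the Ltb class above 10 holds 4.69% in place of 31.2%.

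In each cultured library, Tnf was found more often in cells with Lta than in cells without it. In cells with Lta at 24 h with DCs, 47.9% had Tnf above 0, against 31.4% of cells without. The odds ratio was 2.01 there and 2.18, 2.16 and 2.14 in the other cultured libraries, with Pearson correlations of 0.23, 0.25, 0.14 and 0.16 over 1562, 2247, 1926 and 4942 cells. Tnf and Ltb had odds ratios of 1.12, 1.16 and 1.15 where enough cells were in each class, so that in single cells the adjacent gene Ltb was nearly unrelated to Tnf. Lta and Ltb went together at 24 h, with odds ratios of 2.25 with DCs and 1.61 with MDSCs, and correlations of 0.22 and 0.21. At 72 h their odds ratios were 0.855 and 1.15, and their correlations -0.037 and 0.038. The median odds ratio over the gene pairs that could be computed was 1.16 at 24 h with DCs, 1.12 at 24 h with MDSCs, 1.99 at 72 h with DCs and 1.25 at 72 h with MDSCs. Cells of a library share its preparation, depth per cell is unknown, and these values are descriptions.

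Among the costimulatory receptors, Tnfrsf18 went with both of the others across cells, while Tnfrsf4 and Tnfrsf9 went together mainly at 72 h with DCs. Correlations of Tnfrsf4 with Tnfrsf18, which lies 9551 bp further along chromosome 4, were 0.28, 0.19, 0.38 and 0.30 in the cultured libraries in the order above. Those of Tnfrsf9 with Tnfrsf18 were 0.27, 0.24, 0.38 and 0.21, and those of Tnfrsf4 with Tnfrsf9 were 0.055, -0.056, 0.31 and 0.14. All 3 receptors were above 0 in 32.1% (29.8 to 34.5) of cells at 24 h with DCs, 27.9% (26.0 to 29.8) with MDSCs, 41.4% (39.2 to 43.7) at 72 h with DCs and 26.5% (25.3 to 27.8) with MDSCs. These intervals cover counting error within 1 library each and do not compare the conditions. Odds ratios of Ltb with Tnfrsf4 were under 1 in the cultured libraries, at 0.536, 0.707, 0.302 and 0.777, with weak correlations of -0.19, -0.11, -0.11 and -0.041.

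Cells of 72 h with DCs were also ordered by their Tnfrsf9 value into cells at 0 (327), at 1 to 2 (539), at 3 to 5 (585) and at 6 or more (475). Mean Tnfrsf4 in these classes was 0.517, 1.29, 2.00 and 3.22 adjusted counts, and mean Tnfrsf18 was 4.63, 5.57, 7.06 and 9.72. Lta followed the same order at 0.144, 0.432, 0.545 and 0.813, while Ltb did not, at 8.61, 8.28, 8.07 and 9.51. Cells at 0 had a median of 2846 genes above 0 and the other classes 3168, 3328 and 3295, and its part was not tested. With MDSCs the same classes held 1795, 1857, 935 and 355 cells, and Lta ran from 1.06 to 2.34, Tnfrsf4 from 0.703 to 1.58 and Tnfrsf18 from 5.35 to 8.96 between the lowest and the highest class. The Lta mean in cells without Tnfrsf9 (1.06) was above that in the highest Tnfrsf9 class of the library without MDSCs (0.813).

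At 24 h the levels of several of the genes differed with the effector transcript a cell held. Tnf and Tnfrsf4 were higher in cells with Il2, the T cell growth factor: with DCs, Tnfrsf4 was at 203 CPM in 818 cells with Il2 and 110 in 744 without, and Tnf at 75.0 and 41.5. Lta and Tnfrsf9 were higher in cells with Ifng, the interferon gamma gene: with DCs, Lta was at 404 CPM in 247 cells with Ifng and 189 in 1315 without, and Tnfrsf9 at 346 and 186. The library with MDSCs gave the same directions, with Tnfrsf4 at 149 and 82.3 CPM by Il2, Lta at 492 and 314 by Ifng, and Tnfrsf9 at 265 and 131 by Ifng. Tnf was also higher in cells with Ifng, at 73.2 against 56.5 CPM with DCs and 76.2 against 66.2 with MDSCs. By Il2, the log2 ratios of Lta were -0.06 and -0.27. Ltb and Tnfrsf9 were lower in cells with Il2. Their log2 ratios without and with MDSCs were -1.26 and -0.55 for Ltb and -0.42 and -0.50 for Tnfrsf9.

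The split by Gzmb, the granzyme B gene, was wide for Ltb, Lta and Tnfrsf9. With DCs, Ltb was at 166 CPM in 1005 cells with Gzmb and 41.2 in 557 without (log2 ratio 2.02), and with MDSCs at 115 in 2072 cells and 44.9 in 175 cells (1.35). Lta was also higher with Gzmb, at 267 against 144 CPM (0.89) with DCs and 379 against 194 (0.97) with MDSCs. Tnfrsf4 went the other way at 129 against 213 CPM and 104 against 199. Tnfrsf9 was higher with Gzmb at 249 against 144 (0.79) and 178 against 58.7 (1.60). In the Mki67 split, cells with the gene had lower Ltb (-1.05 and -1.02 without and with MDSCs) and lower Tnfrsf9 (-0.74 and -0.69), and higher Tnfrsf4 (0.39 and 0.66). Cells with Mki67 had medians of 3868 and 3786 genes above 0, against 3479 and 3380 without, and its part was not tested.

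**Figure D5:**
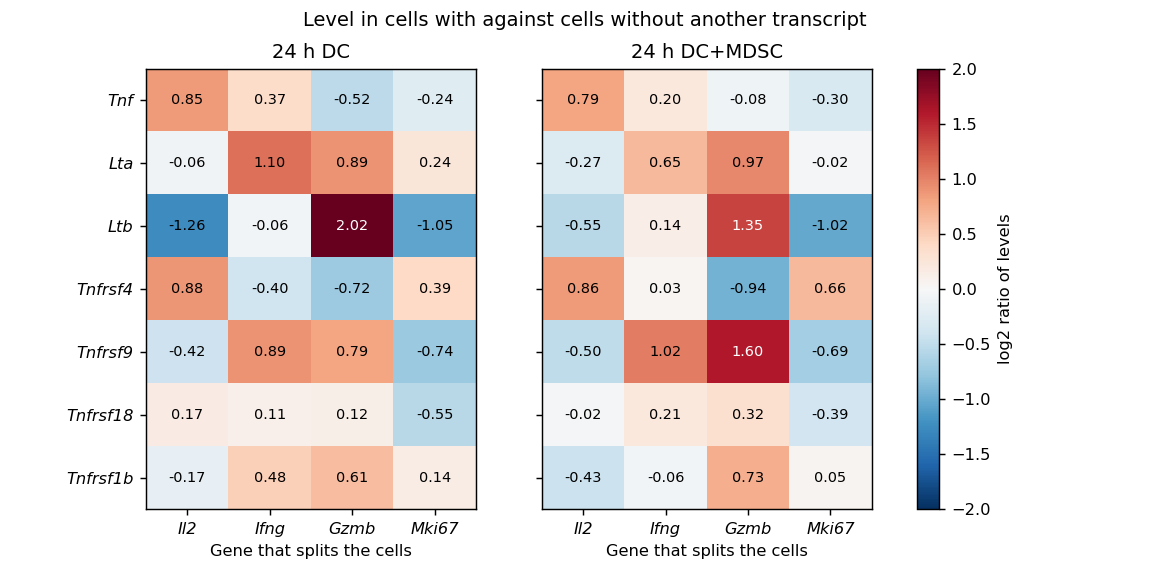
Log2 ratio of the level of each of the 7 genes (rows) in cells with against cells without another transcript (columns), at 24 h with DCs (left) and with DCs and MDSCs (right). Colour and printed number both give the ratio. Tnf and Tnfrsf4 are above 0 for Il2, Lta and Tnfrsf9 for Ifng, and Ltb is at 2.02 and 1.35 and Tnfrsf9 at 0.79 and 1.60 for Gzmb.

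Since the makeup of the libraries by these transcripts differed (Gzmb in 1005 of 1562 cells and 2072 of 2247 cells at 24 h), the ratio with against without MDSCs was also read within each class. In cells with Gzmb at 24 h, the log2 ratio was 0.50 for Lta, -0.54 for Ltb, -0.31 for Tnfrsf4, -0.49 for Tnfrsf9 and -0.46 for Tnfrsf18. In cells without Gzmb, Lta was at 0.43 and Tnfrsf9 at -1.29, but Ltb at 0.12 and Tnfrsf4 at -0.10. Ifng was above 0 in 247 of 1562 cells and 640 of 2247 cells at 24 h. In cells with Ifng, Lta was at 0.28, smaller than its ratio of 0.71 over all cells, and in cells without Ifng at 0.73. Tnfrsf4 was at -0.15 and -0.58 in these classes, and Tnfrsf9 at -0.39 and -0.51. In cells with and without Il2, Lta was at 0.58 and 0.79. Mki67 was above 0 in 297 of 1562 cells and 1033 of 2247 cells at 24 h. In cells with and without Mki67, Tnfrsf9 was at -0.11 and -0.16, closer to 0 than its ratio of -0.33 over all cells, and Ltb at 0.11 and 0.09, above 0 where its ratio over all cells was -0.15. Lta was at 0.51 and 0.77 in these classes and Tnfrsf4 at -0.51 and -0.77. At 72 h the ratio of Lta was 1.08 in cells with Mki67 and 2.00 in cells without (127 against 31.7 CPM). Those of Ltb were -1.04 and -1.16, of Tnfrsf9 -1.23 and -0.91, and of Tnfrsf4 -1.30 and -0.51. Directions of these 4 genes at 72 h were thus the same in cells with and without Mki67, with a wider difference for Lta in cells without Mki67 and for Tnfrsf4 in cells with it. Cells with Mki67 at 72 h had medians of 3402 and 3254 genes above 0 without and with MDSCs. Cells without it had 2663 and 2905.5, and the part of this in the ratios was not tested. These differences between classes were not tested.

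Of the rest of the family, 14 of 18 listed ligands and 24 of 28 listed receptors were in the table, and 5 ligands and 8 receptors reached 20 CPM in any library. Beyond the 7 genes these were 2 ligands and 4 receptors. Tnfsf11, which encodes RANKL, was at 0.242, 30.7, 22.3, 1.89 and 4.52 CPM in the library order used above, highest at 24 h like Tnf. Tnfsf8, which encodes CD30 ligand, was at 12.7, 26.6, 6.78, 7.92 and 28.6 CPM. Cd27, a costimulatory receptor of naive T cells, was at 287, 101, 88.2, 166 and 110 CPM. The death receptor gene Fas was at 13.9, 32.9, 24.2, 29.6 and 48.6, and Tnfrsf1a, which encodes TNFR1, at 11.9, 10.8, 12.6, 22.8 and 18.6. Tnfrsf13b, best known as a receptor of B cells, was at 13.4, 18.8, 17.3, 28.4 and 24.8.

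The lists of genes that act with or downstream of the receptors are counted beside all genes tested. Of 16 NF-kB subunit, inhibitor and feedback genes at the minimum level, 13 were at least 2-fold higher at 24 h with DCs than at 0 h (39.6% of all genes) and none lower, with a median log2 ratio of 1.76 against 0.69 over all genes tested. From 24 h to 72 h with DCs 12 of 16 were lower, against 21.6% of all genes, and none higher (median -2.20 against -0.25). With MDSCs 14 of 16 were lower, against 26.3% (median -1.82 against -0.46). Bcl2l1, which encodes the survival protein Bcl-xL, was at 6.46 CPM at 0 h, 154 at 24 h and 15.8 at 72 h with DCs, and Nfkbid, an atypical NF-kB inhibitor, was at 86.8 at 24 h and 3.87 at 72 h. With MDSCs at 24 h none of 16 was past 2-fold in either direction, where 0.709% of all genes were. At 72 h 2 of 9 were higher, against 1.85% of all genes, Bcl2a1b at 66.8 against 26.7 CPM and Bcl2l1 at 35.8 against 15.8.

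Of the receptor adaptors and signalling genes, 7 of 17 were higher at 24 h with DCs than at 0 h and none lower, a share near the 39.6% of all genes, with a median of 0.56 against 0.69. Among them were Traf4 at 112 against 19.6 CPM and Traf6 at 21.1 against 4.60. From 24 h to 72 h 4 of 18 were lower with DCs, near the 21.6% of all genes, including Traf4 at 31.4 CPM and the linear ubiquitin protease gene Otulin at 44.2 against 162. With MDSCs none of 18 was past 2-fold at 24 h, where 0.709% of all genes were. At 72 h 1 of 13 was lower, near the 5.51% of all genes: Cflar, an inhibitor of caspase 8, at 18.8 against 38.5. Rbck1, at 76.8 against 122 CPM, and Ikbkb, at 46.0 against 75.7, were the members furthest in the other direction at 24 h against 0 h, short of 2-fold. Of 5 genes for TNF processing and mRNA decay at the minimum level, 3 were lower at 24 h with DCs than at 0 h, against 11.1% of all genes. These included Zfp36, whose product tristetraprolin binds the Tnf message for decay, at 9.79 against 58.6 CPM, and Zfp36l1 at 26.3 against 71.8. At 72 h Zfp36 was at 21.7 CPM with DCs and 7.51 with MDSCs, and Zfp36l2 at 59.0 and 24.5, so that 2 of 5 were lower with MDSCs, against 5.51% of all genes.

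Of the NFAT, AP-1 and receptor signal genes, 3 of 8 were higher and 2 lower at 24 h with DCs than at 0 h, against 39.6% and 11.1% of all genes. Irf4, whose factor is known to follow the strength of T cell receptor signals, was at 103 against 0.145 CPM, Nr4a1 at 36.0 against 3.36, Fos at 2.76 against 161 and Fosb at 1.44 against 35.7. Nr4a1 was at 3.84 and Irf4 at 21.7 CPM at 72 h with DCs, where 3 of 7 genes were lower than at 24 h (21.6% of all genes), and with MDSCs 5 of 6 were (26.3%). With against without MDSCs, none of 6 was past 2-fold at 24 h, where 0.709% of all genes were. At 72 h 2 of 6 were lower, against 5.51% of all genes, Junb at 125 against 301 CPM and Jun at 13.3 against 31.0.

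Genes most like each of the 7 across single cells were taken by the mean within-library correlation over the 5 libraries, among 5715 genes found in 5% or more of the cells of every library. For Tnf these were Dusp2 (0.17), Lta (0.15) and Cd69 (0.14), and within the 24 h library with DCs the correlations of Dusp2 and Cd69 were both 0.31. For Lta they were Gzmb (0.37), Il2ra (0.32) and Agpat3 (0.26), and for Tnfrsf9 they were Gzmb (0.35), Il2ra (0.31) and Mt1 (0.27). The Tnfrsf9 means lean on the unusual 0 h values: Il2ra was at 0.83 there and at 0.11, 0.10, 0.31 and 0.22 in the cultured libraries, and Mt1 at 0.61 there and at 0.047, 0.075, 0.37 and 0.25. For Lta, Agpat3 was likewise at 0.48 at 0 h and at 0.33, 0.25, 0.17 and 0.095 in culture. Gzmb with Lta was at 0.43 at 0 h and at 0.36, 0.38, 0.33 and 0.35 in culture, and Il2ra at 0.39 and at 0.29, 0.31, 0.38 and 0.24. The closest to Ltb were Shisa5 (0.28), Plac8 (0.28) and Ms4a4b (0.27), and to Tnfrsf4 they were Bcl2l1 (0.24), Tnfrsf18 (0.24) and Sdf4 (0.19). For Tnfrsf18 they were Tnfrsf9 (0.25), Sdf4 (0.24) and Cdkn1a (0.20), and for Tnfrsf1b no gene exceeded 0.077. By profile of log2(level + 1) over the 5 libraries, the closest were Zmynd19 for Tnf, Timm10 for Lta, Dennd1c for Ltb, Hk2 for Tnfrsf4, Xpnpep1 for Tnfrsf9, Cep19 for Tnfrsf18 and Msl3 for Tnfrsf1b.

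Markers of other cells were read in the same libraries. Summed neutrophil and granulocytic MDSC markers (5 of 10 in the table) were at 1.02, 0.247, 4.23, 0.103 and 1.27 CPM, with S100a8 and S100a9 at 0 in both DC libraries. Monocyte markers (6 of 11) were at 116, 24.5, 25.5, 53.6 and 47.4 CPM. Ly6c2 made up most of these sums except at 72 h with MDSCs, where Cd68, which encodes a lysosomal protein of macrophages, was at 18.8 CPM. Cd68 was above 0 in 19.0% of those cells and in 6.18% at 72 h without MDSCs. The other monocyte markers beside Ly6c2 were low at 72 h. With and without MDSCs, Ms4a6c was at 5.05 and 2.67 CPM and Ccr2 at 2.14 and 3.81. Lyz2 was at 0.0933 and 0.0343 and Fcgr3 at 0.266 and 0.240. Summed dendritic cell markers (8 of 13) were at 2.76, 57.4, 95.3, 309 and 151. At 24 h the highest were Batf3 (32.4 CPM with DCs and 66.1 with both) and Cd74 (18.6 and 24.7). With DCs at 72 h it was H2-Ab1, at 255 CPM and above 0 in 89.1% of cells. Most of the other dendritic cell markers were low in that library. Batf3 was at 42.0 CPM, Fscn1 at 6.93, Cd74 at 2.91 and H2-Eb1 at 1.27. H2-Aa was at 0.514, and Itgax and Ccl22 were both at 0.0343. With both at 72 h they were Batf3 (83.3) and H2-Eb1 (34.7). Cells with any of the 10 myeloid markers used were 8.39% and 13.5% at 24 h and 14.5% and 27.9% at 72 h without and with MDSCs. Without those cells every gene of the 7 stayed on its side of the 2-fold rule in all 5 comparisons. Lta at 72 h was at 91.0 CPM with MDSCs in the remaining cells, against 33.5 without.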

How the data were processed

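Cells of 5 libraries were measured by droplet RNA sequencing. Per the submitters' processing notes, Cell Ranger 2.0.1, Seurat and mm10 were used. Deposited values are on a natural log scale, ln(1 + n), where n is a whole number for each gene and cell. How the authors adjusted n is not given in the labels or file headers, so no count model was fitted. Whole numbers (tolerance 1e-06) were summed per gene and library and scaled to 1000000. The library of each cell came from the deposited cell annotation. A gene was counted at 2-fold or more with 20 CPM or more in either library, in 5 comparisons that share libraries, and nothing was tested because each group had 1 library. The 7 genes and the lists were chosen with earlier results of these data known. Named were the 7 genes, the 2 genes of each list furthest in each direction per comparison, the 3 most like each of the 7, and some marker or neighbouring genes chosen after their values were seen. Doublets were not treated. Code for the 2-fold rule was tested on simulated data. Alternatives were equal weight per cell, levels from the mean natural log, centring on the median, a total without ribosomal protein and mitochondrial genes, other minimum levels, a value of 2 or more for shares, the authors' separate table of each time point, and leaving out cells with a myeloid marker. Leaving out genes of low variance at 0 h was added after seeing the data. Python 3.11.15, numpy 2.4.6, scipy 1.17.1 and matplotlib 3.10.9 were used.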

Additional observations from a re-analysis of the deposited data

Results flagged for a closer look

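Tnfsf8, the gene of CD30 ligand, lay on opposite sides of the 2-fold rule at the 2 times. At 24 h it was at 6.78 CPM with MDSCs and 26.6 without, a log2 ratio of -1.97, and at 72 h at 28.6 CPM with and 7.92 without, a log2 ratio of 1.85. The share of cells above 0 was 8.46% against 25.8% at 24 h and 32.8% against 10.3% at 72 h. The difference between the times was not tested, as each value rests on 1 library.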

How the results depend on the processing

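No paired analysis was possible because each group was 1 library and the results come from no test, and no library could be left out. Of 259 ratios of the 7 genes under the alternatives, 256 stayed on their side of the 2-fold rule. Tnfrsf18 at 72 h against 24 h with DCs passed it from the mean natural log (1.16) and after centring (1.17), and Tnfrsf1b at 24 h against 0 h dropped below a minimum level of 50 CPM. Among ratios of other named genes 584 stayed and 24 were lost. None reversed. Without genes of low variance at 0 h, 4 of the 6 genes past 2-fold at 24 h against 0 h remained. Ltb at 24 h with against without MDSCs, not past the rule, ran from -0.28 to 0.07. The number of all genes past 2-fold moved with the minimum level: at 50 CPM it was 1254 in place of 2602 at 24 h with DCs against 0 h, 1174 in place of 2016 at 72 h against 24 h with DCs, 18 in place of 35 for MDSCs at 24 h, 188 in place of 347 for MDSCs at 72 h, and 1090 in place of 1900 at 72 h against 24 h with MDSCs. For MDSCs at 24 h it was 56 at a minimum of 10 CPM and 22 in the table of that time point. Fewer or more genes enter under another minimum, and the cause of the last was not tested. Of 98 shares of cells, 48 moved beyond their counting interval, 33 of them when a value of 2 or more was asked for and 14 of 28 in the table of each time point. Unknown depth limits every share, and values at 0 h limit every ratio against it.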
